A study of Rattus norvegicus with 9 samples.

Results

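The genes described here are 10 members of the bone morphogenetic protein (BMP) pathway: the ligands Bmp2, Bmp3, Bmp4, Bmp6 and Gdf10, the type I receptors Bmpr1a and Bmpr1b, the extracellular antagonists Grem1 and Nog, and the target gene Id1. They were taken by gene symbol from a table of 19085 genes, where each of the 10 symbols stands on 1 row, and all 10 were among the 13256 genes with enough counts for a test. Messenger RNA was sequenced from primary osteoblasts, the bone-forming cells, isolated from the calvaria of newborn male Sprague-Dawley rats and kept for 7 days in osteogenic induction medium. The control group received that medium alone (3 libraries). The thrombin group received the medium with thrombin at 20 U/mL (3 libraries), and the PD03 group received it with thrombin at 20 U/mL and 0.1 µM PD0325901 (PD03), which inhibits the kinase MEK (3 libraries). A protocol in the sample labels gives the PD03 concentration as 0.1 mM, and the tissue label reads knee although the growth protocol beside it names the calvaria. No group received PD03 without thrombin, so PD03 against control is a difference of both agents at once. The study asked whether blocking MEK changes what thrombin does to differentiating osteoblasts, and the comparisons below describe these genes at the level of RNA. Without a group given PD03 alone, they cannot tell a changed effect of thrombin from an effect of PD03 that does not depend on thrombin.

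BMP ligands are secreted dimers of the TGF-β superfamily that bind type I and type II serine/threonine kinase receptors, whereupon the type I receptor phosphorylates Smad1, Smad5 and Smad9 and these enter the nucleus with Smad4. In bone, Bmp2, Bmp4 and Bmp6 are known to promote osteoblast differentiation, while Bmp3 is known to restrain it and Gdf10 (also called Bmp3b) is its closest relative. Gremlin 1 and noggin bind ligands outside the cell and keep them from their receptors, and Id1, an inhibitor of basic helix-loop-helix factors, is among the genes most directly induced by BMP signalling.

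The 250 bases before the annotated start of each gene were read from a RefSeq promoter table (build GRCr8), which held 8 of the 10 members; Bmp2 and Bmpr1b had no entry. The promoters of Gdf10, Grem1 and Nog are printed because these were the members called higher with PD03 than in control, and that of Bmp3 because this ligand had the largest fall with thrombin among the 10. The Gdf10 window lies at chr16:9243262-9243511 (plus strand), the Grem1 window at chr3:120978320-120978569 (minus strand), the Nog window at chr10:74627502-74627751 (minus strand) and the Bmp3 window at chr14:11041283-11041532 (minus strand). Each is written 5′ to 3′ on the strand of its gene, and capitals mark the letters GGCGCC, a GC-rich element known from BMP-responsive promoters.
Gdf10: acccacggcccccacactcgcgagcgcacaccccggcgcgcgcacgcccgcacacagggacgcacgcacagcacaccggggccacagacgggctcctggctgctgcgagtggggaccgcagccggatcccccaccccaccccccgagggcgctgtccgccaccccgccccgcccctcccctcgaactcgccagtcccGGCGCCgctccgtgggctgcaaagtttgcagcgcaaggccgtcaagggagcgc
Grem1: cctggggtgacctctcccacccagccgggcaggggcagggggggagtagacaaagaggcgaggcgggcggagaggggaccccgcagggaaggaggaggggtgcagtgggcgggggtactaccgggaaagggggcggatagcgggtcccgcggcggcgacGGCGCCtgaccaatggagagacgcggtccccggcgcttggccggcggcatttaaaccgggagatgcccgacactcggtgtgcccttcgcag
Nog: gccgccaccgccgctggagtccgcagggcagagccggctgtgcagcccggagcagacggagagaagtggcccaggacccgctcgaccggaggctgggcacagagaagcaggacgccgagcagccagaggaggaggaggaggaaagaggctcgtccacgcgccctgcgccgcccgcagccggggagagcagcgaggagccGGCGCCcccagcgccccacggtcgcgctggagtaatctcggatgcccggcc
Bmp3: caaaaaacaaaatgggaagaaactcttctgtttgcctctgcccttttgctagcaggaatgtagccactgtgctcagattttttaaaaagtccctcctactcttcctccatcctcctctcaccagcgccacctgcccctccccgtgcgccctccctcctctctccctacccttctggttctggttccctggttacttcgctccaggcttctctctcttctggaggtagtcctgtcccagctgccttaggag

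GGCGCC stood 53 to 48 bases before the start of Gdf10, 91 to 86 bases before that of Grem1 and 51 to 46 bases before that of Nog, and in none of the other 5 matched member promoters. Of all 33469 promoters of the same length, 8.69% held it. The 3 promoters were also rich in G and C, with 76% in Gdf10, 72% in Grem1 and 74% in Nog against a median of 51.2% over all promoters. The other 5 held 66.4% (Bmp4), 56.4% (Bmp6), 54.8% (Id1), 53.6% (Bmp3) and 28.4% (Bmpr1a). Among the other motifs searched on both strands, TGANTCA (AP-1) was found in Bmpr1a (6.34% of all promoters) and CACGTG (an E-box) in Bmp4 (5.59%). CCGGAAG (ETS, 7.27%), TGACGTCA (CRE, 1.59%) and TGTGGT (Runx, 14.5%) matched no member. These matches describe letters only; no factor binding was measured.

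Total counts lay between 15447832 and 19841468 per library. Libraries of the same group differed beyond counting noise, and each of the 9 was entered as its own sample. By the chi-square of the counts per degree of freedom, replicates 2 and 3 were closest in each group (control 1.82, thrombin 2.15, PD03 1.92). Pairs with replicate 1 stood at 3.06 to 4.04. Levels compared between groups are in CPM, that is, counts scaled to the library size with TMM factors (mean ± SD, n = 3), and the others in the deposited FPKM, which also divides by gene length and is used wherever genes are compared with each other. Genes with an adjusted p under 0.05 in edgeR's quasi-likelihood test and an absolute log2 fold change above 0.58 were called, and "rose" and "fell" are written only of called genes. The paper calls the 3 samples of a group independent, but neither it nor the labels say whether they are separate cultures or animals. The p-values set each group difference against the spread between these samples, whichever of these they are. Of the osteoblast markers, Col1a1 (mean 42854 to 72132 CPM by group) and Runx2 (32.1 to 51.1 CPM) were the most abundant, and Sp7 stood at 4.25 to 6.20 CPM. Alpl, an early marker, had 6 counts in every thrombin library and at most 62 in any library, Phex had 3 to 18 counts, and the late markers Bglap, Ibsp and Dmp1 had at most 5. In bulk RNA, fewer cells that express a gene and less of its RNA per cell cannot be told apart.

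Grem1 was the most abundant of the 10 genes per length in all 3 groups, and Bmp6 the most abundant ligand. In the control group the mean FPKM ran from 73.7 for Grem1 through 39.6 for Bmp6, 29.6 for Id1, 23.4 for Bmpr1a, 16.1 for Bmp4, 8.62 for Nog, 7.47 for Bmp3 and 1.71 for Bmpr1b to 0.967 for Gdf10 and 0.909 for Bmp2. The libraries of neighbours in this order overlapped only for Nog and Bmp3 and for Gdf10 and Bmp2. In the thrombin group no neighbours overlapped: Grem1 stood at 186 FPKM and Gdf10 was last at 0.348 FPKM, and Bmpr1b (4.21 FPKM) ranked above Bmp3 (2.29 FPKM), the reverse of their order in the control group. In the PD03 group Bmp3 (5.85 FPKM) was again above Bmpr1b (1.28 FPKM), Gdf10 (2.03 FPKM) had moved above Bmpr1b, and the overlapping neighbours were Id1 with Bmpr1a and Bmpr1b with Bmp2. Bmp2, the ligand most often used to drive bone formation, was thus among the lowest of the 10 in every group (at most 32 counts in a library).

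**Figure D1:**
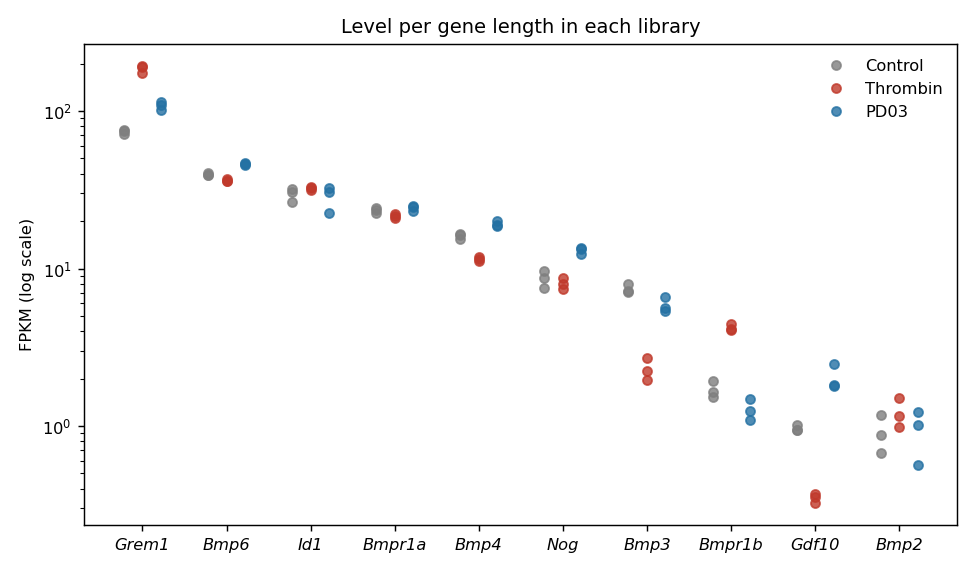
Deposited FPKM of the 10 BMP genes on a log scale, 1 point per library, coloured by group and ordered by the mean in the control group. Grem1 is highest in every library, and Bmp3, Bmpr1b and Gdf10 show the widest separation between groups.

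Thrombin against control asks what thrombin changes, and 4 of the 10 genes were called, where 8.06% of all genes tested were. Bmpr1b and Grem1 rose, against 2.62% of all genes, and Bmp3 and Gdf10 fell, against 5.44%. PD03 against thrombin asks what MEK inhibition changes in the presence of thrombin, and 6 of the 10 were called, against 15.9% of all genes. Bmp3, Bmp4, Gdf10 and Nog were higher (9.61% of all genes) and Bmpr1b and Grem1 lower (6.31%). In PD03 against control, 3 were called, against 8.97% of all genes. Gdf10, Grem1 and Nog were higher (4.9% of all genes) and 0 were lower (4.07%). With the adjusted p alone the counts were 5, 8 and 7 of 10, where 28.7%, 49.8% and 39.9% of all genes passed, and the libraries of the groups compared did not overlap for 8, 8 and 7 of 10, against 40.3%, 55.5% and 47.8% of all genes. The median log2 fold change of the 10 was −0.09 for thrombin against control, 0.35 for PD03 against thrombin and 0.25 for PD03 against control, with medians between −0.01 and 0.01 over all genes. Bmp3, Gdf10, Bmpr1b and Grem1 appear in the study's own figures as genes picked from these libraries, so that their calls are not independent evidence, and the 3 comparisons share libraries with each other.

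**Figure D2:**
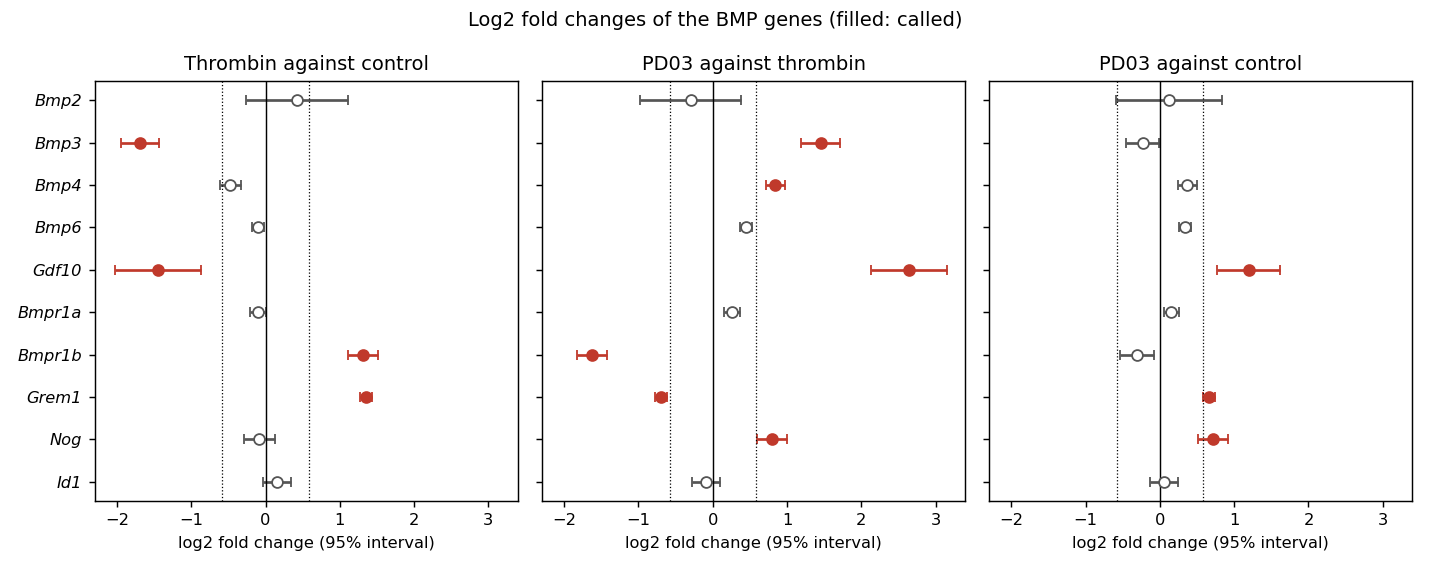
Log2 fold change with its 95% interval for each of the 10 genes in the 3 comparisons; filled red points are called and dotted lines mark 0.58 in either direction. Bmp3 and Gdf10 lie left of the lower line for thrombin against control and right of the upper line for PD03 against thrombin, and Bmpr1b and Grem1 the other way round.

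Among the ligands, Bmp3 (ENSRNOG00000002381) had the largest fall with thrombin. Its counts were 289, 280 and 249 in the control libraries, 83, 79 and 103 in the thrombin libraries and 251, 197 and 256 in the PD03 libraries, so that every thrombin library was below all others. In CPM the means were 16.4 ± 1.13, 5.09 ± 0.846 and 13.9 ± 1.55 (n = 3 each). Thrombin against control was thus a 3.22-fold fall (log2 fold change −1.69, SE 0.13, adjusted p = 1.6e-14) and PD03 against thrombin a 2.73-fold rise (log2 fold change 1.45, SE 0.13, adjusted p = 9.8e-13). Against control, the PD03 group stood at a log2 fold change of −0.23 with a 95% interval from −0.46 to −0.01 (adjusted p = 0.0875), and was not called.

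Gdf10 (ENSRNOG00000051993), its relative, also fell with thrombin, but unlike Bmp3 it rose in the PD03 group above control. Counts were low, at 40, 38 and 35 in the control libraries and 14, 14 and 15 with thrombin, and they were 118, 70 and 76 in the PD03 libraries. The groups did not overlap in any comparison, and PD03 replicate 1 was the highest library (6.25 CPM, beside 4.53 and 4.65 CPM). With thrombin it was 2.73-fold lower (log2 fold change −1.45, SE 0.28, adjusted p = 8.7e-05), from 2.26 ± 0.120 to 0.825 ± 0.0537 CPM. The PD03 mean of 5.15 ± 0.959 CPM was 6.23-fold above thrombin (log2 fold change 2.64, SE 0.25, adjusted p = 6.2e-12) and 2.29-fold above control (log2 fold change 1.19, SE 0.21, adjusted p = 1.2e-05). Without PD03 replicate 1 it was still called against control, and the lowest log2 fold change with any 1 library left out was 1.02. On the log2(FPKM + 1) scale, which understates changes of low genes, the thrombin difference was −0.54 and was not called.

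Bmp4 (ENSRNOG00000009694) was lowest with thrombin and highest with PD03, in smaller steps. The CPM values were 38.4, 36.0 and 38.4 in the control libraries, 28.0, 26.2 and 27.2 with thrombin, and 50.9, 47.9 and 47.1 with PD03, with no overlap between any pair of groups. The thrombin difference passed the adjusted p but not the fold threshold (log2 fold change −0.47, SE 0.07, adjusted p = 3.0e-07). From thrombin to PD03 Bmp4 rose 1.79-fold (log2 fold change 0.84, SE 0.07, adjusted p = 1.9e-14). The PD03 group was also above control in every library, with a log2 fold change of 0.37 (adjusted p = 6.0e-06), below the fold threshold.

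Bmp6 (ENSRNOG00000013717) and Bmp2 (ENSRNOG00000071010) were called in none of the 3 comparisons. Bmp6 was tight within groups, at 140, 138 and 138 CPM in the control libraries, 132, 128 and 128 CPM with thrombin and 178, 176 and 174 CPM with PD03. The PD03 libraries were thus above all others, with log2 fold changes of 0.44 against thrombin (95% interval 0.36 to 0.53, adjusted p = 2.2e-12) and 0.34 against control (0.26 to 0.42, adjusted p = 3.4e-09), while thrombin against control was −0.10 (adjusted p = 0.0579). Bmp2 had counts of 26, 13 and 17 in the control libraries, 24, 22 and 32 with thrombin and 14, 25 and 22 with PD03. The groups overlapped throughout, and the 95% interval for thrombin against control, from −0.26 to 1.11, includes differences beyond the threshold that could not be detected at this depth. The length implied by the FPKM of Bmp2 was 1253 bases, while the other 4 ligands had 2260 to 3616 bases.

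Summed per length, the 5 ligands stood at 64.3 to 66.5 FPKM in the control libraries, 50.5 to 52.9 FPKM with thrombin and 73.7 to 75.7 FPKM with PD03. Bmp6 made up 60.7% to 61.0% of that sum in the control libraries, 69.1% to 71.6% with thrombin and 62.0% to 62.8% with PD03. The share of Bmp6 was thus highest in the thrombin libraries, in which Bmp3, Bmp4 and Gdf10 were at their lowest. These sums and shares are descriptions with no test. FPKM carries no TMM factors, which were 1.03 to 1.04 in the control, 1.02 in the thrombin and 0.95 in the PD03 libraries. The sums with PD03 are therefore lower beside the other groups than TMM scaling would give, while the shares are unaffected.

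**Figure D3:**
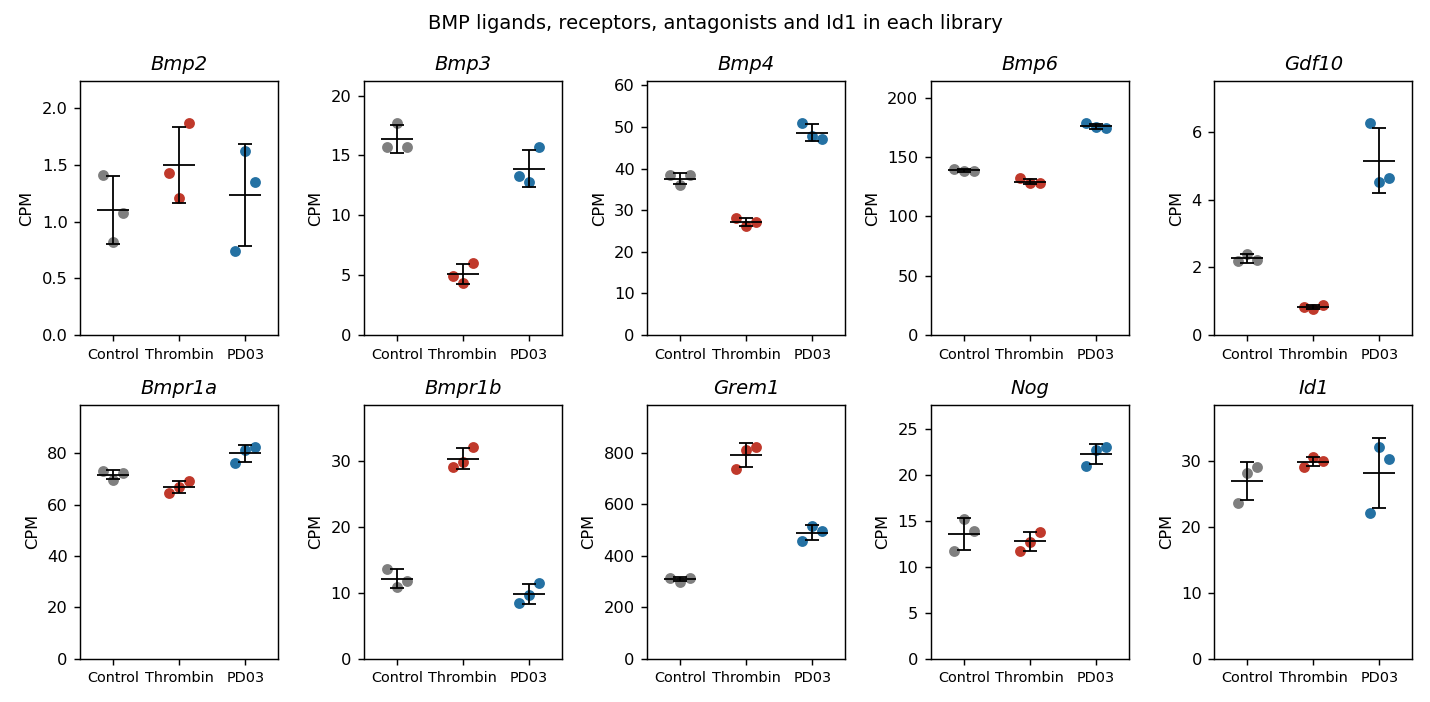
CPM after TMM scaling for each of the 10 genes, with 1 point per library, a line at the mean and bars of 1 SD over 3 libraries; each panel has its own axis from 0. In Bmp3, Gdf10 and Bmp4 the thrombin libraries lie below all others, in Bmpr1b and Grem1 they lie above all others, and in Bmp2 the groups overlap.

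The type I receptors differed from each other. Bmpr1b (ENSRNOG00000016289), a receptor known for its part in cartilage condensation and bone, rose with thrombin and fell with PD03. Its counts were 252, 173 and 188 in the control libraries, 490, 544 and 552 with thrombin and 160, 149 and 188 with PD03. Every thrombin library was above all others, whereas the control and PD03 libraries overlapped. From 12.2 ± 1.41 CPM in the control group Bmpr1b rose 2.49-fold to 30.4 ± 1.59 CPM with thrombin (log2 fold change 1.31, SE 0.10, adjusted p = 1.5e-14), and in the PD03 group it was 3.09-fold lower than with thrombin, at 9.88 ± 1.53 CPM (log2 fold change −1.63, SE 0.10, adjusted p = 2.2e-17). Against control, PD03 gave a log2 fold change of −0.31 (95% interval −0.54 to −0.08, adjusted p = 0.0258), below the fold threshold.

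Bmpr1a (ENSRNOG00000052469), the widely expressed type I receptor, was called in no comparison. It lay between 69.6 and 72.9 CPM in the control libraries, 64.4 and 69.1 CPM with thrombin and 76.2 and 82.3 CPM with PD03. The groups did not overlap, but the steps were small, with log2 fold changes of −0.10 for thrombin against control (95% interval −0.21 to 0.01), 0.26 for PD03 against thrombin (0.15 to 0.36) and 0.16 for PD03 against control (0.05 to 0.26). Per length, Bmpr1b was 7.46%, 6.30% and 6.57% of the RNA of these receptors in the control libraries, 16.3%, 16.1% and 16.6% with thrombin and 4.55%, 4.86% and 5.65% with PD03. Bmpr1a thus remained the larger part in every library, and the share of Bmpr1b was highest in the 3 thrombin libraries.

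Of the antagonists, Grem1 (ENSRNOG00000026053) rose with thrombin and its level in the PD03 group lay between those of the other groups. The libraries held 5761, 4750 and 4965 counts in the control group, 12414, 14809 and 14115 with thrombin and 8662, 7969 and 8103 with PD03, with no overlap. Mean levels were 309 ± 7.83 CPM, 791 ± 45.9 CPM and 490 ± 29.0 CPM. The rise with thrombin was 2.56-fold (log2 fold change 1.36, SE 0.04, adjusted p = 5.4e-28), and PD03 was 1.61-fold below thrombin (log2 fold change −0.69, SE 0.04, adjusted p = 1.3e-18). Against control, PD03 was 1.59-fold higher (log2 fold change 0.67, SE 0.04, adjusted p = 1.7e-17). This call depended on the scaling: with library totals the log2 fold change was 0.55, under the fold threshold, in a setting where the median of all genes was −0.12, and it was 0.54 and 0.55 from the FPKM with 1 and 0.1 added.

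Nog (ENSRNOG00000023683), noggin, did not differ detectably between thrombin and control and rose with PD03. Its CPM values were 11.7, 15.2 and 13.9 in the control libraries, 11.8, 12.8 and 13.9 with thrombin and 21.0, 22.7 and 23.1 with PD03. The control and thrombin libraries overlapped (log2 fold change −0.08, 95% interval −0.30 to 0.13), and every PD03 library was above all others. PD03 was 1.74-fold above thrombin (log2 fold change 0.80, SE 0.10, adjusted p = 6.1e-09) and 1.64-fold above control (log2 fold change 0.71, SE 0.10, adjusted p = 1.1e-07). On the log2(FPKM + 1) scale the difference from control was 0.55 and was not called.

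Set against the ligands it can bind, Grem1 RNA was 4.24, 4.44 and 4.31 times the sum of Bmp2 and Bmp4 per length in the control libraries. The ratio was 13.3, 15.9 and 14.9 in the thrombin libraries and 4.88, 5.63 and 5.55 in the PD03 libraries. The thrombin libraries thus stood apart from the other 6, while the PD03 libraries were all slightly above the control libraries. With Bmp6 added to the ligands, the ratio was 1.29 to 1.32 in the control libraries, 3.46 to 3.97 with thrombin and 1.49 to 1.71 with PD03. Grem1 exceeded Nog 7.43 to 10.0 times per length in the control libraries, 22.3 to 23.9 times with thrombin and 8.10 to 8.55 times with PD03. These are ratios of RNA, given as descriptions.

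**Figure D4:**
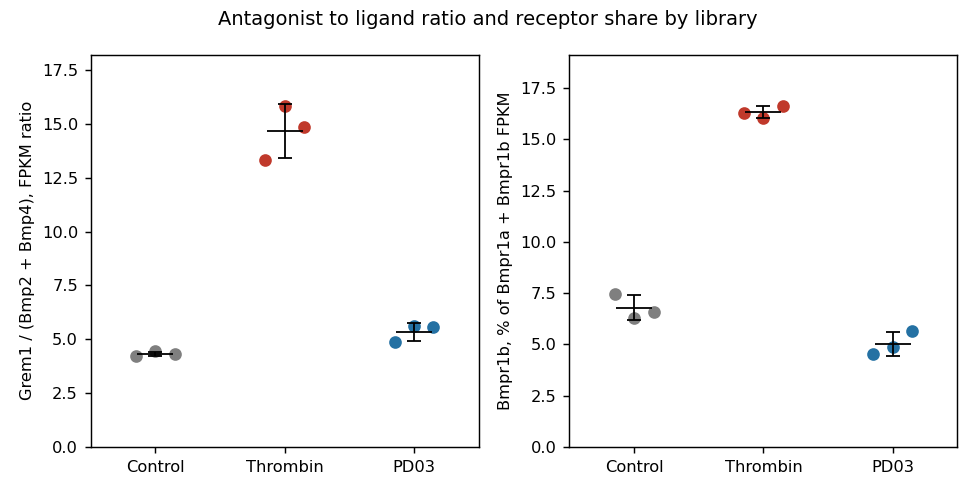
Left, the FPKM of Grem1 divided by the summed FPKM of Bmp2 and Bmp4; right, Bmpr1b as a percentage of the summed FPKM of Bmpr1a and Bmpr1b. Points are libraries, lines are means and bars are 1 SD (n = 3). The thrombin libraries reach 13.3 to 15.9 on the left and 16.1% to 16.6% on the right, above the control and PD03 libraries in both panels.

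Id1 (ENSRNOG00000021750), the target gene, was called in no comparison. Its CPM values were 23.6, 28.1 and 29.1 in the control libraries, 29.1, 30.5 and 29.9 with thrombin and 22.0, 32.1 and 30.3 with PD03. The highest control and the lowest thrombin library both stood at 29.1 CPM, and PD03 replicate 1 was the lowest of all 9. The 95% intervals of the log2 fold change were −0.03 to 0.34 for thrombin against control, −0.28 to 0.09 for PD03 against thrombin and −0.13 to 0.25 for PD03 against control, all inside the fold threshold. Without PD03 replicate 1 the PD03 against thrombin value of −0.09 became 0.06, and the PD03 against control value of 0.06 was negative (−0.05 to −0.07) without PD03 replicate 2, with library totals and from FPKM.

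Within the 10 genes, patterns over the 9 libraries were compared by the root mean square difference of centred log2 CPM. Bmp6 and Bmpr1a were closest to each other (0.10), followed by Bmp4 and Bmp6 (0.18). Grem1 and Bmpr1b, both highest with thrombin, were 0.46 apart, and Bmp3 and Gdf10, both lowest with thrombin, 0.61 apart. By the same measure, over 12143 other tested genes with a symbol, the gene most like Bmpr1b was Wnt5a (0.0975), which had means of 92.8, 227 and 78.2 CPM in the control, thrombin and PD03 groups. The gene most like Bmp3 was Lypd6 (0.163), that most like Gdf10 was Olfml2b (0.143), that most like Grem1 was Arl4c (0.136), that most like Bmp4 was Slc44a2 (0.0391) and that most like Nog was Carns1 (0.0794). Likeness is a description over 9 libraries in 3 groups, to which the groups themselves contribute.

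A list of 52 further genes of the pathway, chosen by role, placed 49 genes in the table, of which 35 had enough counts for a test. Thrombin against control called 5 of the 35, with Gdf6, Bmper and Msx2 higher and Gdf5 and Chrd lower. PD03 against thrombin called 11, with Gdf5, Chrd, Nbl1, Bambi, Bmp1, Id2, Id4 and Atoh8 higher and Gdf6, Bmper and Msx2 lower. PD03 against control called 7, all higher, namely Gdf5, Nbl1, Bambi and Id4, together with the type I receptor Acvr1, the antagonist Fstl3 and the protease Tll1, which are named after their values were seen. The shares of 14.3%, 31.4% and 20% stand beside 8.06%, 15.9% and 8.97% of all genes. The median log2 fold changes over the 35 were 0.07, 0.15 and 0.35. Chrd and Msx2 are shown in the study's own figures, and their calls are not independent evidence.

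**Figure D5:**
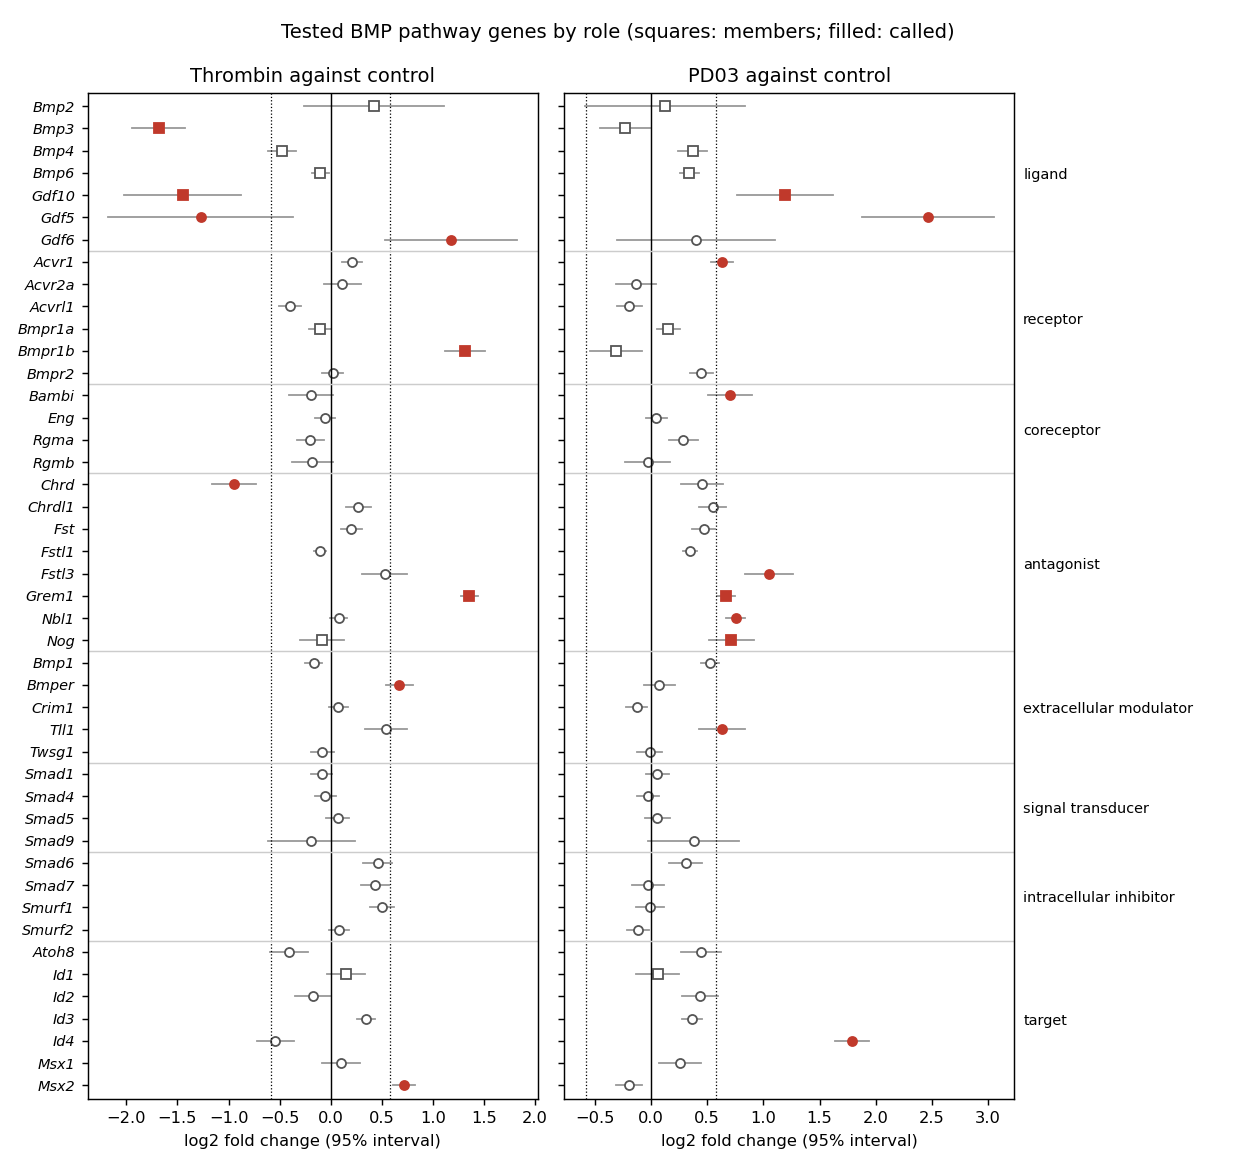
Log2 fold change with its 95% interval for the tested pathway genes, grouped by role, for thrombin against control (left) and PD03 against control (right). Squares are the 10 genes of the report, circles the other 35, and filled red symbols are called; on the right all 8 antagonists lie above 0 and no gene is called lower.

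Of 7 further ligands in the table, 5 were too low for a test, with at most 6 counts in a library. Gdf5, a ligand known from joint formation that signals through Bmpr1b, had counts of 20, 12 and 15 in the control libraries, 2, 4 and 14 with thrombin and 100, 70 and 94 with PD03. The PD03 libraries were far above the rest, 13.3-fold above thrombin (log2 fold change 3.74, SE 0.34, adjusted p = 1.7e-12) and 5.52-fold above control (log2 fold change 2.46, SE 0.29, adjusted p = 2.7e-09). The fall with thrombin (log2 fold change −1.27, adjusted p = 0.0278) rested on few counts. It was not called without control replicate 1 (−1.14), control replicate 3 (−1.26), thrombin replicate 1 (−0.87) or thrombin replicate 2 (−0.98). Its relative Gdf6 had 12 to 19 counts in the control libraries, 29 to 48 with thrombin and 15 to 33 with PD03. Gdf6 rose with thrombin (log2 fold change 1.18, SE 0.32, adjusted p = 0.0040) and fell with PD03 against thrombin (−0.78, SE 0.30, adjusted p = 0.0313). The fall of Gdf6 was not called without thrombin replicate 1 (−0.58) or 2 (−0.82), or without PD03 replicate 2 (−0.73) or 3 (−0.59). Nor was it called with DESeq2 (−0.80) or on the log2(FPKM + 1) scale (−0.46).

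Of the other antagonists, Chrd, chordin, had 278 to 357 counts in the control libraries, 136 to 188 with thrombin and 359 to 513 with PD03. It fell with thrombin (log2 fold change −0.95, SE 0.11, adjusted p = 9.3e-10) and rose with PD03 against thrombin (1.40, SE 0.10, adjusted p = 2.2e-15). Nbl1, a member of the DAN family, was at 150 to 158 CPM in the control libraries, 162 to 165 CPM with thrombin and 245 to 272 CPM with PD03, with log2 fold changes of 0.08 (not called), 0.68 (adjusted p = 8.8e-18) and 0.76 (adjusted p = 5.4e-19) in the 3 comparisons. The Nbl1 call for PD03 against thrombin was lost with library totals (0.58, just under the threshold) and from FPKM (0.57 and 0.58 with 1 and 0.1 added). Counting Grem1 and Nog, 8 antagonists were tested, and in PD03 against control all 8 had a log2 fold change above 0 with an adjusted p under 0.05, from 0.35 (Fstl1) to 1.05 (Fstl3), where 19.7% of all genes did so. In thrombin against control 4 of the 8 did so (14.1% of all genes) and in PD03 against thrombin 7 of the 8 (25.3%). The modulators Crim1, Twsg1 and Bmper also bind BMPs and stand outside this group. In PD03 against control their values were −0.12 (adjusted p = 0.0271), −0.01 (0.905) and 0.08 (0.401). The lowest value of any of the 8 in PD03 against control over the alternatives was 0.23, and this count was chosen after the values were seen.

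Among coreceptors and modulators outside the cell, Bambi, a pseudoreceptor that dampens BMP and TGF-β signalling, had 10.8 to 15.2 CPM in the control and thrombin libraries and 21.7 to 22.7 CPM with PD03. It rose with PD03 against thrombin (log2 fold change 0.90, SE 0.10, adjusted p = 3.9e-10) and against control (0.70, SE 0.10, adjusted p = 1.3e-07), the latter not called on the log2(FPKM + 1) scale (0.53). Bmper, a secreted BMP-binding protein, rose with thrombin from 38.5 ± 2.34 to 61.4 ± 0.505 CPM (log2 fold change 0.67, SE 0.06, adjusted p = 2.2e-11) and fell to 40.7 ± 4.09 CPM with PD03 (−0.60, adjusted p = 1.8e-10). The fall of Bmper was not called without PD03 replicate 1 (−0.53). Bmp1, a metalloproteinase that cleaves chordin and procollagen and is no BMP ligand despite its name, rose with PD03 against thrombin from 168 ± 7.94 to 273 ± 5.95 CPM (log2 fold change 0.70, SE 0.04, adjusted p = 1.3e-18).

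None of the 4 further tested receptors, the 4 Smad signal transducers or the 4 intracellular inhibitors (Smad6, Smad7, Smurf1 and Smurf2) was called when thrombin was compared with control or with PD03. For thrombin against control, the log2 fold changes of Smad6 and Smad7, themselves induced by BMP signalling, and of the ubiquitin ligases Smurf1 and Smurf2 were 0.46 (adjusted p = 1.6e-06), 0.43 (1.6e-06), 0.50 (2.5e-09) and 0.08 (0.251). For PD03 against thrombin they were −0.15 (adjusted p = 0.0659), −0.46 (1.9e-07), −0.51 (6.8e-10) and −0.19 (8.7e-04).

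The further target genes did not move together. Id4 had 289, 294 and 267 counts in the control libraries, 200, 210 and 200 with thrombin and 1086, 962 and 925 with PD03, so that the PD03 libraries were far above the rest. It was 5.03-fold higher with PD03 than thrombin (log2 fold change 2.33, SE 0.08, adjusted p = 1.1e-26) and 3.45-fold higher than control (1.79, SE 0.07, adjusted p = 7.0e-23). Id2 rose in PD03 against thrombin, from 24.2 ± 1.70 to 37.0 ± 4.71 CPM (log2 fold change 0.61, SE 0.08, adjusted p = 2.3e-08), but was not called without thrombin replicate 1 (0.54), PD03 replicate 2 (0.54) or PD03 replicate 3 (0.56), nor with library totals (0.51) or from FPKM (0.48 and 0.51 with 1 and 0.1 added). Atoh8 also rose with PD03 against thrombin (0.85, SE 0.09, adjusted p = 1.1e-10), from 13.1 to 16.3 CPM in the thrombin libraries to 25.9 to 29.2 CPM. In thrombin against control, Id4 (−0.54, adjusted p = 6.4e-06) and Atoh8 (−0.41, adjusted p = 6.9e-04) were lower, below the fold threshold. Id2 stood at −0.18 (adjusted p = 0.111) in that comparison. Msx2, a homeobox gene of skull and tooth development, was highest with thrombin. Its CPM values were 55.8, 56.7 and 62.6 in the control libraries, 94.3 to 99.4 with thrombin and 50.8 to 51.1 with PD03, a rise with thrombin of 0.72 (SE 0.05, adjusted p = 1.0e-14) and a fall with PD03 against thrombin of −0.92 (SE 0.05, adjusted p = 3.3e-18) on the log2 scale. Id1, described above, and Id3 lay beside these without a call. Id3 had log2 fold changes of 0.35 (adjusted p = 1.2e-08), 0.02 (0.788) and 0.36 (2.9e-09) in the 3 comparisons. Its thrombin and PD03 libraries were thus all above the control libraries, by less than the fold threshold. Id3 is likewise named after its values were seen.

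Several other gene lists moved with the groups. Of 8 feedback genes of the ERK cascade, 6 were called lower in PD03 against thrombin and 6 in PD03 against control, and 1 (Dusp4) higher in thrombin against control. With thrombin, Dusp6 (−0.40), Spry2 (−0.31), Etv5 (−0.52) and Egr1 (−0.48) were lower with an adjusted p under 0.05, below the fold threshold. The summed level of the 8 was 523 to 626 CPM in the control libraries, 382 to 524 CPM with thrombin and 118 to 137 CPM with PD03. Egr1 alone had means of 339, 243 and 18.7 CPM in these groups. Of 6 chondrocyte markers, 3 were called higher and 1 lower with thrombin, 2 higher in PD03 against thrombin, and 5 higher and 1 lower in PD03 against control, with sums of 95.2 to 105 CPM, 70.9 to 77.5 CPM and 90.5 to 97.7 CPM in the control, thrombin and PD03 libraries. These sums were mostly Col2a1 (means of 84.4, 49.2 and 56.4 CPM), which was the marker called lower, while Sox9, Acan and Matn3 rose with thrombin. Of 6 adipocyte markers 3 were tested and all 3 fell with thrombin, 2 rose in PD03 against thrombin and 0 were called in PD03 against control, with sums of 212 to 221, 104 to 109 and 163 to 173 CPM that were mostly Lpl, while Adipoq had at most 1 count. Endothelial markers summed to 6.69 to 7.76, 6.36 to 8.50 and 11.1 to 12.6 CPM, with Tie1 at no more than 1 count; of 2 tested, 0 were called with thrombin, 2 higher in PD03 against thrombin and 1 higher in PD03 against control. Skeletal muscle markers summed to 5.87 to 8.58, 7.07 to 8.74 and 8.54 to 9.21 CPM, and of 2 tested, 0, 1 and 1 were called, both higher with PD03. Myeloid markers summed to 20.4 to 23.7, 29.0 to 32.8 and 17.5 to 18.6 CPM, mostly Cd14, while Ptprc, the defining leukocyte gene, had at most 6 counts; of 2 tested, 0 were called with thrombin, 1 lower in PD03 against thrombin and 1 higher in PD03 against control. Of 5 tested osteoblast markers, Alpl fell with thrombin (log2 fold change −2.24), Alpl (3.14) and Col1a1 (0.75) rose and Runx2 (−0.67) fell in PD03 against thrombin, and Alpl (0.90) and Col1a1 (0.60) rose in PD03 against control. With thrombin, Runx2 (0.26, adjusted p = 0.0022) and Sp7 (0.53, adjusted p = 0.0180) were higher than control, below the fold threshold. Col1a1 (−0.15, adjusted p = 1.0e-04) and Phex (−0.24, adjusted p = 0.776) were lower and not called. By qPCR, the paper instead reports that thrombin lowered osteogenic genes including Runx2 and Osterix (Sp7), and that PD03 reversed this. It reports the same by western blot for proteins including Runx2, which RNA levels do not measure. The part of these lists in the differences of the BMP genes was not tested.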

How the data were processed

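The authors induced rat osteoblasts for 7 days, prepared libraries with a NEBNext Ultra RNA kit and, according to the paper, used fastp for trimming, HISAT2 for alignment to Rnor_6.0 and featureCounts for counting. The submitters' processing notes instead name HISAT2, HTSeq 0.13.5 and mRatBN7.2. No source used here gives the annotation release or the strandedness, so reads of overlapping or antisense genes could not be told apart. The authors deposited raw counts and FPKM per gene and library; each deposited FPKM value equals the count divided by the library total and by 1 gene length in whole bases (tolerance 0.01 bases, all 19085 genes).

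Counts were analysed with R 4.3.3, edgeR 4.0.16 (filterByExpr with a minimum count of 10, TMM, glmQLFit and glmQLFTest, 9 libraries in 1 fit), with Benjamini-Hochberg adjustment over 13256 genes. Standard errors were taken from the F statistic. Total counts were 15447832 to 19841468 per library. The biological coefficient of variation, edgeR's estimate of the variation within groups beyond counting noise, was 4.28% in common over genes. The fold threshold of 0.58 is that of the study's methods.

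The members and lists were chosen with earlier results of these data known. All 10 members are named. Results for 1 item are not reported here. Further pathway genes are named when called for thrombin against either other group, provided that the highest group mean is 1 CPM or more, up to 20. For each called member, 1 gene with the smallest root mean square difference of log2 CPM (prior count 2) is named. Alternatives were DESeq2 1.42.0, limma 3.58.1 (voom, and log2 FPKM with 1 or 0.1 added), other scalings, filters and fold thresholds, a replicate block, fits of 2 groups, and each library left out. Promoters came from a RefSeq table (GRCr8), matched by symbol. Its coordinates belong to that build and were not joined to the counts. Plots were made in matplotlib 3.10.9 (Python 3.11.15).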

Additional observations from a re-analysis of the deposited data

How the results depend on the processing

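Of 30 results (10 genes in 3 comparisons), 17 kept the same call under every alternative run and 27 under those that keep the fold threshold, and no called value changed sign. The fold threshold mattered most. Without it, the counts in thrombin against control were 20 further pathway genes and 3808 of all genes, in PD03 against thrombin 26 and 6608, and in PD03 against control 7 of the 10 genes, 22 and 5289. With a log2 fold change above 1, they were 2 and 505 for thrombin against control, 3 of the 10 genes, 3 and 935 for PD03 against thrombin, and 1 of the 10, 3 and 519 for PD03 against control. With log2(FPKM + 1) all genes called were 543, 1254 and 676 in the 3 comparisons, and thrombin against control called 3 further pathway genes, and PD03 against control called 4 of them and 1 of the 10. Leaving out each library in turn gave 4 to 4, 6 to 6 and 3 to 3 of the 10 genes, 4 to 6, 9 to 12 and 7 to 8 further pathway genes, and 989 to 1085, 2043 to 2152 and 1168 to 1205 of all genes. The share of calls that were higher fell from 60.4% to 46.5% with library totals and 42.8% or 46.3% from FPKM with 1 or 0.1 added in PD03 against thrombin, and from 54.6% to 34.1%, 36.2% and 34.3% in PD03 against control. No pairing of the samples by replicate number was detected (correlations of the deviations of same-numbered libraries −0.05 to 0.05, 0 of 9 pairs above 0.1). Counting noise also enters these correlations over all tested genes, so they cannot exclude a shared culture or batch. With the replicate number as a block, 4, 6 and 3 of the 10 genes and 1067, 2103 and 1187 of all genes were called. Gdf5 and Gdf6 lost their thrombin against control calls with log2(FPKM + 1) (−0.28 and 0.57). Bmp2, Gdf10, Gdf5 and Gdf6 were not tested with a mean count of at least 50, which left 3 further pathway genes called in thrombin against control. Depth limits Bmp2, at 13 to 32 counts per library. The cause was not tested for any of these shifts.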
